A study of Mus with 8 samples.

Results

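Fos, Fosb, Jun, Junb, Jund, Egr1, Atf3, Ier2, Ier3 and Myc are immediate early genes, the genes that are transcribed first when a cell meets a growth factor or a stress. They were taken from the array table by their gene symbols, and all 10 were found among the 23185 genes with a symbol, each with 1 row. The samples were mouse livers collected 48 h after partial hepatectomy, the surgical removal of liver lobes that sets off regrowth of what remains. Of the 8 samples, 4 were labelled Ctrl, called Control here, and 4 LKB1 KO (KO_LKB1 in the titles). The operation and the time were common to both groups. The way LKB1 was removed, the cells in which it was removed, the strain, sex and age of the mice and any pooling of animals are not stated in the labels. The labels do not say that the samples of a group are separate animals, so each p-value measures the spread between these samples, which may in part be technical.

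AP-1 is a transcription factor made of pairs of basic leucine zipper proteins. The FOS proteins FOS and FOSB must pair with a JUN protein, while JUN, JUNB and JUND can also pair with each other, and ATF3 is a related zipper protein of the stress response that can pair with JUN. EGR1 is a zinc finger factor, IER2 and IER3 are small proteins made early after a stimulus, and MYC, paired with MAX, drives genes of cell growth and ribosome production. Transcription of these genes is switched on through kinase cascades that act on factors already present in the cell, such as serum response factor and CREB, and most of their transcripts are short-lived. In the liver many of them, Jun and Myc among them, are known to be induced soon after partial hepatectomy, and Jun is known to be needed for normal hepatocyte division during regrowth. LKB1, encoded by Stk11, is a kinase that activates AMPK and related kinases.

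The deposited values were log2 expression, so a difference of 1 is a 2-fold change. Array medians lay between 3.75 and 3.96 log2 units. Stk11, the gene that the labels name as removed, lay between 6.46 and 6.76 in Control and between 3.97 and 4.84 in LKB1 KO, and its arrays did not overlap. LKB1 KO 2 stood apart from the rest in its spread over genes (SD 1.92 against 2.03 to 2.10) and had the lowest mean correlation with its own group (0.974), followed by Control 4 (0.976). With 4 arrays a group, precision is limited by their number. The cells that gave rise to a transcript are not known in bulk tissue, where fewer cells of a type and less RNA per cell cannot be told apart.

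All 10 genes had a higher mean in LKB1 KO than in Control, and 5 of them rose: Egr1, Fos, Atf3, Jun and Ier2. None fell, also at an unadjusted p under 0.05, at which 9 of the 10 were higher. That unadjusted threshold was passed upward by 5.8% and downward by 7.63% of all genes, which is the background for each unadjusted count given here. Ier3, Myc, Junb, Fosb and Jund did not pass the test, which was an adjusted p under 0.05 by limma over all 23185 genes. In the same comparison 0.487% of all genes were called higher, 1.49% were called lower and 1.98% were called in either direction. The median difference of the 10 genes was 0.98 log2 units, against 0.016 over all genes. In 7 of the 10 genes all 4 LKB1 KO arrays lay above all 4 Control arrays, a separation seen upward in 3.34% of all genes and downward in 5.5%. A higher mean alone was common, since 52.9% of all genes had one.

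**Figure D1:**
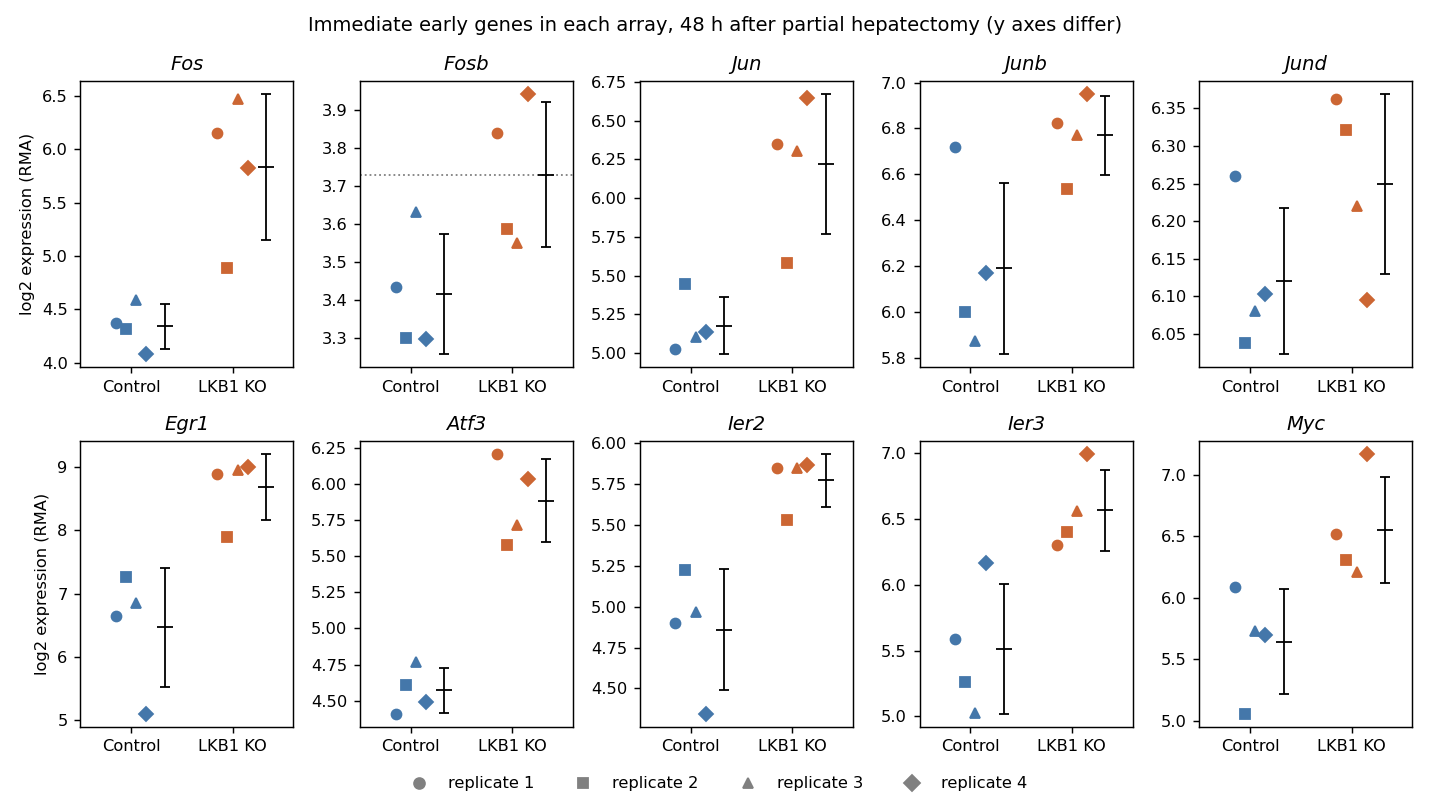
Log2 expression (y axes, a separate scale per gene) of the 10 genes in each array, with Control in blue, LKB1 KO in orange, a symbol per replicate number and the mean ± SD (n = 4) in black. The dotted line in the Fosb panel marks the background level of 3.73, and the groups overlap for Fosb, Junb and Jund.

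Of the FOS family, Fos rose and Fosb did not pass. Fos, the founding member of the family, stood at 4.37, 4.32, 4.59 and 4.08 in Control 1 to 4 and at 6.15, 4.88, 6.47 and 5.82 in LKB1 KO 1 to 4. Every LKB1 KO array was above every Control array, but LKB1 KO 2 lay much nearer to Control than the other three did. The means were 4.34 ± 0.21 in Control and 5.83 ± 0.69 in LKB1 KO (SD, n = 4), a 2.81-fold rise (difference 1.49, SE 0.29, limma adjusted p = 0.0270). In order of size, 42 of all genes had a larger rise.

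Fosb, whose product pairs with JUN proteins as FOS does, was measured near the bottom of the scale. It stood at 3.43, 3.30, 3.63 and 3.30 in Control 1 to 4 and at 3.84, 3.59, 3.55 and 3.94 in LKB1 KO 1 to 4. All 4 Control arrays and 2 LKB1 KO arrays lay below 3.73, the level under which 95% of 1350 olfactory and vomeronasal receptor genes lie, a gauge of background chosen after results had been seen. The difference was 0.31 (SE 0.14, 95% confidence interval 0.0036 to 0.62, limma adjusted p = 0.366), and at such levels its size is uncertain.

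Of the JUN family, Jun rose and the other two did not pass. Jun stood at 5.02, 5.44, 5.1 and 5.14 in Control 1 to 4 and at 6.35, 5.58, 6.31 and 6.64 in LKB1 KO 1 to 4. As for Fos, LKB1 KO 2 was the LKB1 KO array nearest to Control, and it lay 0.14 above the highest Control array. The means were 5.18 ± 0.18 and 6.22 ± 0.45 (SD, n = 4), a 2.06-fold rise (difference 1.04, SE 0.21, limma adjusted p = 0.0329).

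Junb, which can pair with the same partners as Jun and is known as a weaker activator, stood at 6.72, 6.0, 5.87 and 6.17 in Control 1 to 4 and at 6.82, 6.54, 6.77 and 6.95 in LKB1 KO 1 to 4. Control 1 lay above LKB1 KO 2, so the groups overlapped in that array. The difference was 0.58 (SE 0.19, limma adjusted p = 0.178), and it was 0.76 (adjusted p = 0.0510) without Control 1.

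Jund is known as the least inducible JUN gene. It stood at 6.26, 6.04, 6.08 and 6.10 in Control 1 to 4 and at 6.36, 6.32, 6.22 and 6.09 in LKB1 KO 1 to 4, with overlap in several arrays. Its difference was the smallest of the 10 (0.13, SE 0.12, 95% confidence interval -0.14 to 0.39, limma adjusted p = 0.712), and it also had the smallest SD in both groups (0.10 in Control and 0.12 in LKB1 KO, n = 4).

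Atf3 had the smallest adjusted p of the 10. It stood at 4.41, 4.61, 4.77 and 4.49 in Control 1 to 4 and at 6.21, 5.58, 5.72 and 6.03 in LKB1 KO 1 to 4. The gap between the highest Control and the lowest LKB1 KO array, 0.81, was the widest among the 10 genes and exceeded the range within either group (0.36 and 0.63). The means were 4.57 ± 0.16 and 5.89 ± 0.29 (SD, n = 4), a 2.49-fold rise (difference 1.32, SE 0.16, limma adjusted p = 0.00324).

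Egr1 had the largest difference and the widest spread in Control. It stood at 6.65, 7.26, 6.85 and 5.11 in Control 1 to 4 and at 8.89, 7.90, 8.96 and 9.0 in LKB1 KO 1 to 4. Control 4 was low and LKB1 KO 2 was low for its group, and the groups did not overlap. The means were 6.47 ± 0.94 and 8.68 ± 0.53 (SD, n = 4), a 4.65-fold rise (difference 2.22, SE 0.42, limma adjusted p = 0.0239), and 14 of all genes had a larger rise. Without Control 4 the difference was 1.76 (adjusted p = 0.0124).

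Ier2, an early gene with a nuclear product, stood at 4.90, 5.22, 4.97 and 4.35 in Control 1 to 4 and at 5.85, 5.53, 5.84 and 5.87 in LKB1 KO 1 to 4. LKB1 KO 1, 3 and 4 lay close together between 5.84 and 5.87, LKB1 KO 2 lay below them, and all 4 were above Control. The means were 4.86 ± 0.37 and 5.77 ± 0.16 (SD, n = 4), a 1.88-fold rise (difference 0.91, SE 0.18, limma adjusted p = 0.0325).

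Ier3, known for a role in cell survival, stood at 5.59, 5.27, 5.03 and 6.16 in Control 1 to 4 and at 6.30, 6.40, 6.56 and 7.0 in LKB1 KO 1 to 4. The groups did not overlap, but Control 4, which was lowest in Egr1 and Ier2, was here the highest Control array. The difference of 1.05 was slightly larger than that of Jun, with a wider error (SE 0.24, limma adjusted p = 0.0553).

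Myc was likewise separated by group without passing the test. It stood at 6.08, 5.06, 5.73 and 5.70 in Control 1 to 4 and at 6.52, 6.31, 6.21 and 7.17 in LKB1 KO 1 to 4. LKB1 KO 4 was the highest and Control 2 the lowest, and the nearest arrays of the groups, Control 1 and LKB1 KO 3, lay 0.12 apart. The difference was 0.91 (SE 0.25, 95% confidence interval 0.35 to 1.47, limma adjusted p = 0.111).

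**Figure D2:**
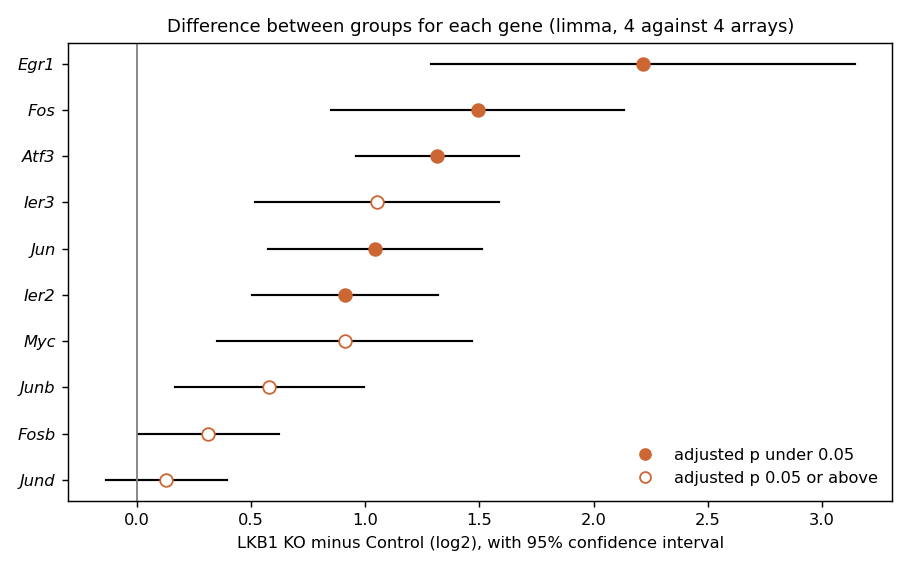
Difference between LKB1 KO and Control in log2 units (x axis) with the 95% confidence interval from limma (bars) for each gene (y axis, ordered by size), filled where the adjusted p was under 0.05. Egr1 has the largest difference (2.22) and Jund the smallest (0.13), and Ier3 lies between called genes without being called.

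Whether members of a family changed by unequal amounts was asked within arrays, by subtracting one log2 value from the other and comparing the groups with an exact two-sided permutation test over 7 pairs. The distance between Fos and Fosb was 0.92 ± 0.10 in Control and 2.10 ± 0.69 in LKB1 KO (SD, n = 4). This distance did not overlap between the groups, and it was larger by 1.18 in LKB1 KO, with an exact permutation p = 0.0286, the smallest 4 against 4 arrays can give, and an adjusted p = 0.133. Since all 4 Control values and 2 LKB1 KO values of Fosb lay below the background level, where RMA compresses differences, the size of this pair's value is uncertain. The difference of Jun exceeded that of Jund by 0.91 (exact permutation p = 0.0571, adjusted p = 0.133) and that of Junb exceeded that of Jund by 0.45 (exact permutation p = 0.0571, adjusted p = 0.133), each with overlapping groups. The difference of Egr1 exceeded that of Myc by 1.31 (exact permutation p = 0.0857, adjusted p = 0.15). The corresponding values of Jun over Junb (0.46), Fos over Jun (0.45) and Ier2 over Ier3 (-0.14) had exact adjusted p-values of 0.2, 0.2 and 0.8. None of the 7 pairs passed after adjustment, which with this number of arrays would have needed at least 5 of the 7 at the smallest possible p. The test could therefore hardly settle the order of the members, and a miss does not show equal changes.

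The arrays did not rank alike for all genes. LKB1 KO 4 was the highest of the 8 arrays in 7 of the 10 genes, LKB1 KO 1 in 2 (Atf3 and Jund) and LKB1 KO 3 in 1 (Fos). LKB1 KO 2 was the lowest of its group in 6 genes, namely Fos, Jun, Junb, Egr1, Atf3 and Ier2, and the highest in 0. Among the Control arrays Control 4 was the lowest in 4 genes and each of the others in 2. The median deviation of the 10 genes from their own means lay between -0.48 and -0.40 in the Control arrays and was 0.48, 0.17, 0.50 and 0.77 in LKB1 KO 1 to 4.

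**Figure D3:**
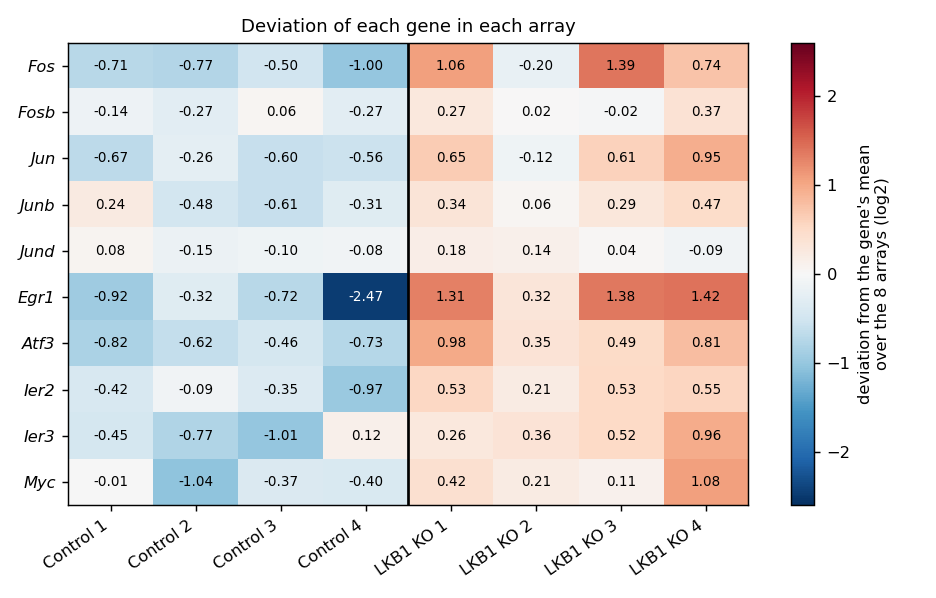
Deviation of each gene (rows) in each array (columns) from that gene's mean over the 8 arrays, in log2 units, printed in each cell and shown as colour. The LKB1 KO columns are mostly red, with LKB1 KO 2 nearest to 0, and the Control cell farthest from 0 is Egr1 in Control 4 (-2.47).

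The direction held in each of 17 alternative analyses for all 10 genes, while the calls did not. Atf3 passed in all 17, with adjusted p up to 0.0498 when variances were not moderated. The call of Fos ended whenever 1 array was dropped, except Control 3 and LKB1 KO 2 (highest adjusted p 0.0873). The call of Jun ended with each array left out but LKB1 KO 2 (highest 0.1). Dropping Control 1 or any LKB1 KO array but the second ended the call of Egr1 (highest 0.0815), and the same arrays and Control 3 ended that of Ier2 (highest 0.099). Of the 10 genes, 1 was called when LKB1 KO 1, LKB1 KO 3, LKB1 KO 4 or Control 1 was dropped, and 3 without Control 2 or Control 3. Without LKB1 KO 2 the difference of Fos was 1.81 (adjusted p = 0.00399) and that of Jun 1.26 (adjusted p = 0.00617). Without both LKB1 KO 2 and Control 4, 6 genes were called higher, among them Ier3 (1.32, adjusted p = 0.0229). Median centring of the arrays ended the calls of Jun (adjusted p = 0.0646) and Ier2 (0.0582), and the fit without moderation ended those of Fos, Jun, Egr1 and Ier2 (0.151 for Ier2 to 0.186 for Egr1). Ier3 was called in 7 of the 17, among them those with quantile normalization (adjusted p = 0.0434), without the dimmest genes (0.04), with a trended and robust prior (0.0424), with array weights (0.0207) and without Control 4 (0.0130). Myc, Junb, Fosb and Jund passed in none of the 17.

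**Figure D4:**
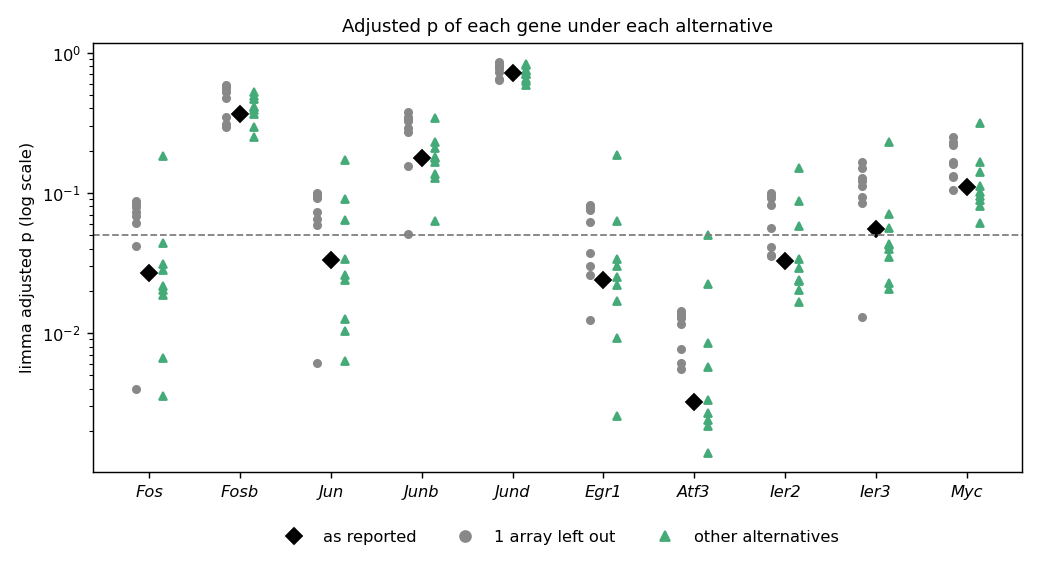
Limma adjusted p (y axis, log scale) of each gene (x axis) as reported (black diamonds), with each of the 8 arrays left out (grey circles) and under the other alternatives (green triangles), with the threshold of 0.05 as a dashed line. Atf3 lies below the line throughout, while the points of Fos, Jun, Egr1, Ier2 and Ier3 fall on both sides.

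Genes related to the 10 by function were described from lists that were chosen with earlier results of these data known, so they are not independent evidence. Of 12 measured other AP-1 and related zipper genes, 1 rose and 0 fell, and 11 did not pass. The gene that rose was Maff, a small MAF factor without an activation domain, which stood between 4.34 and 4.75 in Control and between 5.0 and 5.38 in LKB1 KO (difference 0.68, SE 0.14, limma adjusted p = 0.0376). Its call ended with each array dropped but Control 3 (highest adjusted p 0.117), without both LKB1 KO 2 and Control 4, with median centring and without moderation (0.109). Maf had a difference of -0.72 (adjusted p = 0.119), and its groups did not overlap. The median of the list was 0.0053, and the FOS-related gene Fosl1 lay below the background level of 3.73 in all 8 arrays.

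Among 34 other immediate early genes, 3 rose, 0 fell and 31 did not pass, with a median difference of 0.22 and a higher mean in LKB1 KO for 27. At an unadjusted p under 0.05, 15 of the 34 were higher and 1 lower, and in 6 all LKB1 KO arrays lay above all Control arrays. Nr4a1, an orphan nuclear receptor gene, stood at 4.53, 3.87, 4.71 and 4.53 in Control 1 to 4 and at 8.26, 8.01, 8.11 and 7.83 in LKB1 KO 1 to 4. The difference was 3.64 (SE 0.19, limma adjusted p = 1.41e-05), and in this gene LKB1 KO 2 stood with its group. Plk3, a stress-responsive kinase gene, rose by 1.91 (SE 0.23, limma adjusted p = 0.00300), and Btg2, an antiproliferative gene, by 1.47 (SE 0.22, limma adjusted p = 0.00807). Egr2, an EGR gene of the list chosen for mention after its values were seen, had a difference of 1.06 (limma adjusted p = 0.0509). All 4 of its Control arrays and 2 of its LKB1 KO arrays lay below the background level. It was called in 6 of the 17 alternatives. The other EGR genes of the list, Egr3 (0.08, adjusted p = 0.890) and Egr4 (-0.0022, adjusted p = 0.998), did not pass. Egr4 lay below the background level in all 4 arrays of each group.

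None of the listed and measured genes of factors that act before the 10 passed the test. Of 15 measured upstream kinase and serum response factor genes, 0 passed in either direction, with differences from -0.32 to 0.39 and a median of -0.03, and 1 was higher at an unadjusted p under 0.05. Srf, the serum response factor gene itself, came closest (0.39, SE 0.17, limma adjusted p = 0.348), and its cofactor gene Mrtfb stood at 0.23 (adjusted p = 0.505). Such factors are known to be controlled largely by phosphorylation or location in the cell, which arrays do not measure. Both EGR corepressor genes, Nab1 (0.28, adjusted p = 0.420) and Nab2 (0.18, adjusted p = 0.690), also did not pass, with Nab2 at 0.10 to 0.28 when single arrays were dropped, and 0 of the 2 did at an unadjusted p under 0.05.

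In the MYC network, 1 of 13 genes fell, 0 rose and 12 did not pass. The one that fell was Mxd4, whose product pairs with MAX in place of MYC and represses. It stood at 7.13, 7.17, 6.94 and 7.41 in Control 1 to 4 and at 6.39, 6.12, 6.26 and 6.28 in LKB1 KO 1 to 4, with no overlap. The difference of -0.90 (SE 0.13, limma adjusted p = 0.00759) passed in all 17 alternatives. Mlxipl, a glucose-responsive member of the wider network, had a difference of -0.52 (adjusted p = 0.375). It was called lower in 2 of the 17 alternatives, without Control 4 (-0.78, adjusted p = 0.0295) and without both LKB1 KO 2 and Control 4.

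None of the measured genes listed as targets of MYC or of AP-1 passed the test as reported. Targets of EGR1 and ATF3 were not listed. Of 30 MYC target genes, 0 passed in either direction, 20 had a higher mean in LKB1 KO and the median was 0.17. At an unadjusted p under 0.05, 3 were higher and 1 lower, a share near that of all genes. The nucleolar protein gene Nop58 (0.50, adjusted p = 0.238) and the repair enzyme gene Apex1 (-0.48, adjusted p = 0.214) had the smallest p, and Nop58 was called without LKB1 KO 2 (0.67, adjusted p = 0.0431) and without both LKB1 KO 2 and Control 4 (0.70, adjusted p = 0.0499). Of 14 measured AP-1 target genes, 0 passed, 7 had a higher mean and the median was -0.07. On average 5 of the 14 lay below the background level, where a change could be missed. At an unadjusted p under 0.05, 2 were higher and 1 lower. Ccnd1, the cyclin D1 gene, stood between 7.84 and 8.77 in Control and between 8.82 and 9.26 in LKB1 KO (0.75, SE 0.20, adjusted p = 0.0909), and it was called without Control 3 (adjusted p = 0.0491), with quantile normalization (0.0497) and with array weights (0.0412). Hbegf, a growth factor gene of the EGF family, had a difference of 0.35 (adjusted p = 0.289). Both had arrays that did not overlap.

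**Figure D5:**
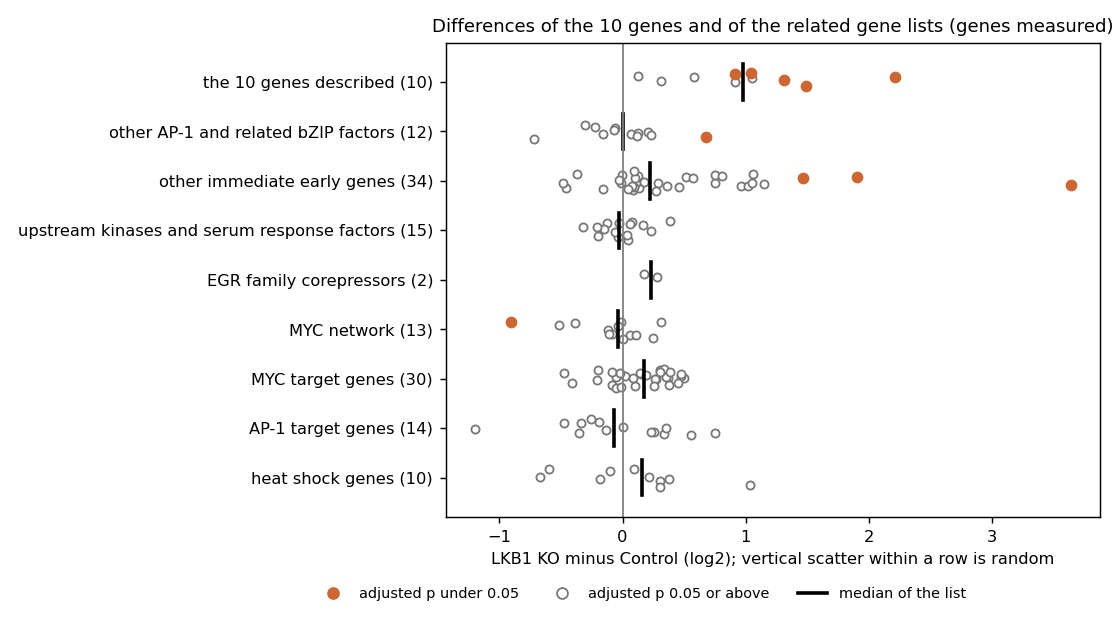
Difference between LKB1 KO and Control in log2 units (x axis) for the 10 genes (top row) and for each related list (other rows, genes measured in brackets), filled where the limma adjusted p was under 0.05, with the list's median as a bar. The median of the 10 genes is 0.98, and the list medians lie between -0.07 and 0.23.

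Heat shock genes, which respond to stress of the tissue, were set beside the 10 genes. Of 10 measured, 0 passed in the limma fit, also at an unadjusted p under 0.05, with a median of 0.15. Hspa8, a constitutive chaperone gene, had the largest difference (1.04, adjusted p = 0.453), which was 0.34 without Control 1, where it stood at 7.95 against 10.67 to 10.80 in the other Control arrays. Dnaja1, a co-chaperone gene, had a difference of 0.38 (adjusted p = 0.400). In both of these genes the LKB1 KO arrays lay above all Control arrays, and 6 of the 10 heat shock genes had a higher mean in LKB1 KO. Among the 4 with a lower mean were Hspa1a (-0.67, limma adjusted p = 0.709) and Hspa1b (-0.60, adjusted p = 0.788), mentioned after their values were seen. Hspa1b varied widely, from 5.55 to 8.76 in Control and from 4.44 to 7.07 in LKB1 KO.

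Markers of several liver cell types had lower means in LKB1 KO. The labelled tissue was borne out by hepatocyte markers, whose mean level lay between 11.80 and 11.85 log2 units in the Control arrays and between 11.53 and 11.64 in the LKB1 KO arrays. All 8 measured hepatocyte markers had a lower mean in LKB1 KO (median -0.18), and 0 passed (3 were lower at an unadjusted p under 0.05). Macrophage markers had lower means in 10 of 10 cases (median -0.42), with array means from 6.57 to 7.34 in Control and from 6.19 to 6.67 in LKB1 KO. Endothelial markers had lower means in 8 of 9 (median -0.42), with array means from 6.26 to 6.59 in Control and from 5.93 to 6.16 in LKB1 KO. At an unadjusted p under 0.05, 6 of the 10 macrophage and 5 of the 9 endothelial markers were lower and 0 were higher. Of all genes, 7.63% were lower at that threshold. The markers that fell, named after their values were seen, were Csf1r (-0.78, limma adjusted p = 0.0378) among those of macrophages, Clec4g (-0.83, adjusted p = 0.00663) and Kdr (-0.72, adjusted p = 0.0434) among those of endothelial cells, and Alas2 (-1.03, adjusted p = 0.0471) of 2 measured erythroid genes, of which the other, Slc4a1, had a difference of 0.38 (adjusted p = 0.561). The calls of Csf1r, Kdr and Alas2 ended in 11, 11 and 10 of the 17 alternatives, and none of the markers rose.

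Neutrophil markers had lower means in 7 of 8 cases (median -0.33). Their array means were 4.55, 4.20, 4.21 and 5.0 in Control 1 to 4 and lay between 3.94 and 4.13 in LKB1 KO. On average 5 of the 8, Elane and Mpo among them, lay below the background level. None of the 8 passed, and 1 was higher and 3 lower at an unadjusted p under 0.05. All 8 measured T, NK and B cell markers lay below it on average (median difference 0.15, 0 passed, 1 higher at an unadjusted p under 0.05). Stellate cell markers had a median of -0.27 and cholangiocyte markers of -0.04, with 0 of 8 and 0 of 5 passed, and 3 and 0 lower at an unadjusted p under 0.05. The part of any of these cell types in the values of the 10 genes was not tested.

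The genes whose pattern over the 8 arrays was most like that of Fos, Egr1 or Myc were sought among 20199 named genes. Likeness was the mean absolute difference between 2 genes' deviations from their own means, in log2 units, and it takes in the difference between the groups. Nearest to Fos were Mmd2 (0.26), the cytokinesis gene Cep55 (0.27) and the clock-related repressor gene Bhlhe40 (0.27), and Atf3 followed as the fourth (0.27), while Jun stood at place 24 (0.32). Nearest to Egr1 were Cip2a (0.42), the mitotic kinase gene Plk1 (0.43) and the mitotic phosphatase gene Cdc25c (0.43), and Fos stood at place 13 (0.48). Nearest to Myc were Itih5 (0.18), the chymotrypsin-like gene with the symbol Ctrl (0.19) and the row with the symbol Mir18 (0.20). Among the 10 genes Junb came nearest to Myc, at place 43 (0.27). Fos, at place 13672 (0.55), and Egr1, at place 19666 (0.83), were farther from Myc than the median gene. The median over all genes compared was 0.81 for Fos, 1.11 for Egr1 and 0.50 for Myc, so the distances of different members are not on a common footing.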

How the data were processed

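Liver RNA of 8 samples was measured on 1 expression array each. Per the labels' protocols, RNA was extracted with TRIzol, amplified with the Ovation PicoSL kit and labelled with biotin. The authors deposited log2 values, 1 per gene row and array; the submitters' processing notes name RMA, which compresses differences between dim probes, and Partek. The design of the array, its probe annotation and the build were not given in the sources used here. Of 25206 rows, 23185 had 1 gene symbol, 0 had several and 2021 had none. Groups and replicate numbers came from the titles.

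The model, with group as its term and no filter on level, was run gene by gene in limma 3.58.1 (R 4.3.3, lmFit then eBayes), and p-values were adjusted by Benjamini-Hochberg over the 23185 genes. Exact permutation tests (Python 3.11.15) compared 7 pairs of genes. Simulated data for this comparison held 23185 genes, with 200 changed in each of 10 runs. On them the fit recovered 7.97% of changes of 0.5 log2 units, 64.4% of those of 1 and 97.0% of those of 2, with 5.13% false calls. The simulated noise was normal, independent between genes and of equal size in all arrays. Differences in array quality, such as those of LKB1 KO 2, were therefore left out of these rates.

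The 10 genes, the lists and the tests were chosen with earlier results of these data known. Named were all 10 genes, up to 6 called members of each list (the 2 with the smallest p where fewer than 2 passed) and the 3 genes nearest to Fos, Egr1 and Myc. Of 202 list entries, 188 matched a row by symbol or synonym, and the others were not analysed here. Alternatives were a block for the replicate number, dropping each array, LKB1 KO 2 and Control 4 both left out, quantile normalization, median centring, removal of the dimmest of 3 equal bins of genes, a trended and robust prior, no moderation, array weights and all rows. A planned search of promoters was not made.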

Additional observations from a re-analysis of the deposited data

Results flagged for a closer look

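Among 64 groups of 4 arrays, 6 held an array far from the other three by Dixon's ratio of gap to range past its 95% critical value, where chance flags about 1 in 20. LKB1 KO 2 was low in Egr1 (7.90 against 8.89 to 9.0, ratio 0.902) and in Ier2 (5.53 against 5.84 to 5.87, ratio 0.929), the same array that lay lowest of its group in 6 of the 10 genes. LKB1 KO 3 was low in Nab2 (6.29 against 6.51 to 6.52, ratio 0.956), and LKB1 KO 4 was high in Hbegf (4.85 against 4.6 to 4.63, ratio 0.886). Control 1 was low in Nop58 (7.05 against 7.33 to 7.38, ratio 0.862) and in Hspa8 (7.95 against 10.67 to 10.80, ratio 0.954).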

How the results depend on the processing

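Of the 10 genes, 5 passed higher and 0 lower as reported. The count higher was 1 to 5 with single arrays left out, 3 with median centring, 6 without both LKB1 KO 2 and Control 4 and 1 without moderation of variances, and 0 were lower in any alternative. Of 130 related list genes, 4 passed higher and 1 lower. The counts higher were 3 to 6 with single arrays left out, 7 with quantile normalization and without both LKB1 KO 2 and Control 4, 11 with array weights and 1 without moderation. The counts lower were 1 to 3 and, without both arrays, 2. With single arrays left out, the 7 pair differences were as follows. Fos over Fosb ranged from 0.90 to 1.45, Jun over Junb from 0.24 to 0.62 and Jun over Jund from 0.72 to 1.15. Junb over Jund ranged from 0.34 to 0.58, Fos over Jun from 0.26 to 0.59 and Egr1 over Myc from 0.83 to 1.77. Ier2 over Ier3 ranged from -0.53 to 0.063. The last reversed without Control 2 (0.063) or Control 3 (0.057). Over all genes, 458 calls (113 higher, 345 lower) became 213 to 491 with single arrays left out, 97 without moderation, 721 with array weights, and 198 higher and 340 lower with quantile normalization. Arrays with equal replicate numbers had correlations of deviations from -0.11 to 0.18. These were not compared with other pairings of the arrays, so they do not settle whether equal numbers share anything. With the replicate block, 3 of the 10 genes (Fos, Atf3 and, newly, Ier3 at limma adjusted p = 0.0346) and 268 of all genes passed. Egr1 (0.0629), Jun (0.0899), Ier2 (0.0882) and Maff (0.0655) did not pass with it. The causes of these changes were not tested.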
